A study of Homo sapiens with 4 samples.

Results

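Expression of the HOX cluster genes was described in embryoid bodies, cell aggregates in which human embryonic stem cells start to differentiate. All genes whose platform symbol is HOX, a cluster letter from A to D and a number were taken, and the probesets (small probe groups within an exon) carrying that symbol alone were averaged per gene. This gave 38 HOX genes on 155 probesets, out of 18640 genes in all. Another 2 probesets carried the symbols HOXC4, HOXC5 and HOXC6 together and were left out.

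The embryoid bodies came from BG01V, an established and karyotypically variant line of human embryonic stem cells. They were given 10 uM TBBD (ellagic acid, a plant polyphenol), named in the series title as an inhibitor of methylation of histone H3 at arginine 17, a mark placed by CARM1, or the vehicle DMSO (dimethyl sulfoxide). TBBD was given for 48 h, generally from day 2 to day 4 of embryoid body formation. Each group held 2 arrays, numbered 1 and 2 in the labels, so that each number had 1 DMSO and 1 TBBD array. What a number stands for is not in the labels, nor is whether each array had its own culture. The p-values therefore reflect the spread of these 4 arrays, which may be technical. Values are log2 RMA signals, on which 1 unit is a doubling.

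HOX genes encode homeodomain transcription factors that give cells their position along the head to tail axis. They lie in 4 clusters, HOXA, HOXB, HOXC and HOXD, and genes in the same place of different clusters form 13 paralogue groups. Within a cluster, genes of low number act from the hindbrain backwards and genes of high number in the trunk, tail, limbs and urogenital tract. In undifferentiated stem cells the clusters are held silent by Polycomb complexes, and retinoic acid, Wnt and FGF signals open them from the low-numbered end. Here groups 1 to 3 are called anterior, groups 4 to 8 central and groups 9 to 13 posterior.

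To show the kind of start site these genes have, 3 windows of 250 bases ending at the annotated start are printed 5′ to 3′ from RefSeq on GRCh38.p14, with CpG dinucleotides in capitals. HOXA2 is shown because it was the HOX gene called higher on the replicate 2 arrays, and HOXA6 because it was the member of the same cluster furthest in the other direction. HOXC4 and HOXC5 are shown because RefSeq gives them a start in common. Their positions are chr7:27102684-27102933 on the minus strand for HOXA2, chr7:27147775-27148024 on the minus strand for HOXA6 and chr12:54016638-54016887 on the plus strand for HOXC4 and HOXC5.
HOXA2: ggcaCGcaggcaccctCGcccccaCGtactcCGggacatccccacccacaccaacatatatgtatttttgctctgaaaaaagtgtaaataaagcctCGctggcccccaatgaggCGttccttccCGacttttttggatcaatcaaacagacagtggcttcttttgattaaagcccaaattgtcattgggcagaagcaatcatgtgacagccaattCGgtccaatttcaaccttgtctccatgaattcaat
HOXA6: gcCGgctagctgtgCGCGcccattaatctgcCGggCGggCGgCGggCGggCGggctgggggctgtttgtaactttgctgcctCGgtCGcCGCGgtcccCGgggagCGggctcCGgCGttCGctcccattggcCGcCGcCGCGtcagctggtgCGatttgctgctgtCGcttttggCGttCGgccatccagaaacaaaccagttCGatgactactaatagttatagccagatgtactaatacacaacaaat
HOXC4 and HOXC5: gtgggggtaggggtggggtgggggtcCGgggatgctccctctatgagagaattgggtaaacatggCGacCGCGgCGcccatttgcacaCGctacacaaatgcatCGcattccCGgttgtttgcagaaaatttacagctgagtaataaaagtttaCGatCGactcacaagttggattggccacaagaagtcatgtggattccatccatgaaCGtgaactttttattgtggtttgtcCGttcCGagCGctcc

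The HOXA2 window held 8 CpG dinucleotides, the HOXA6 window 27 and the HOXC4 and HOXC5 window 14. In all, 20 of the HOX genes matched the RefSeq table, with 26 distinct start sites. These windows held a median of 19.5 CpG dinucleotides against 11.0 over all 34935 windows of that length. From HOXB they held HOXB1 alone and from HOXC only the window shared by HOXC4 and HOXC5, and several were of HOXA3. The median thus describes mainly HOXA and HOXD. The motif TGATNNAT, a site that HOX proteins bind together with PBX cofactors, was searched on both strands. It was present in 3 of the 26 HOX windows, those of HOXA2, HOXB1 and HOXD11, and in 6.49% of all windows. A match of letters is a description and not a bound site.

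Median probeset signals lay between 6.39 and 6.42 on the 4 arrays. LIN28A, which encodes an RNA-binding protein of pluripotent cells, had signals from 9.08 to 10.0 and was the brightest of 13 measured pluripotency markers. Mean signals of these markers ran from 5.82 to 9.63, with a median of 7.14 against 6.35 over all genes. NANOG had a mean of 6.60. No detection call was used here, so levels were read against genes not expected to be active in these cells. The 348 olfactory receptor genes had median signals from 5.37 to 5.43 and a 95th percentile from 5.67 to 5.74 over the arrays. Signals of different genes come from different probes, and the base composition of the probes was not tested, so distance from this set describes a level without measuring an abundance.

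HOX genes had a lower median signal than all genes, and HOXB had the highest median of the 4 clusters. The median signal was 6.06 over the 38 HOX genes and 6.35 over all genes. On every array 25 HOX genes lay above the 95th percentile of the olfactory receptor genes, a mark that 65.2% of all genes passed. The count was 9 of 10 in HOXB, 7 of 10 in HOXA, 6 of 9 in HOXC and 3 of 9 in HOXD. The median signal was 6.80 in HOXB, 6.13 in HOXA, 6.07 in HOXC and 5.76 in HOXD. By position it was 6.24 for the 7 anterior, 6.21 for the 15 central and 5.89 for the 16 posterior genes, and 5 of 7, 12 of 15 and 8 of 16 of them passed the mark.

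A second silent set with a higher 95th percentile left a short list. Taste receptor, keratin-associated protein and beta-defensin genes, 121 in all, had a 95th percentile from 6.64 to 6.95. Of the 121 genes 31, or 25.6%, themselves passed the olfactory receptor mark on every array, so not all of them need be silent. Above the second mark on every array were 6 HOX genes, HOXB2, HOXB3, HOXB4, HOXB8, HOXB9 and HOXC6. The dimmest of these by mean was HOXB4, which 69.8% of all genes lay below. With the 99th percentile of the olfactory receptor genes the count was 16. The shares of all genes above these stricter marks are not given here, so both counts describe the HOX genes alone. On no array did HOXA4, HOXA11, HOXC10, HOXC11, HOXD3, HOXD12 or HOXD13 pass the olfactory receptor mark, and HOXA3, HOXB13, HOXC5, HOXD8, HOXD9 and HOXD11 passed it on some arrays only.

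**Figure D1:**
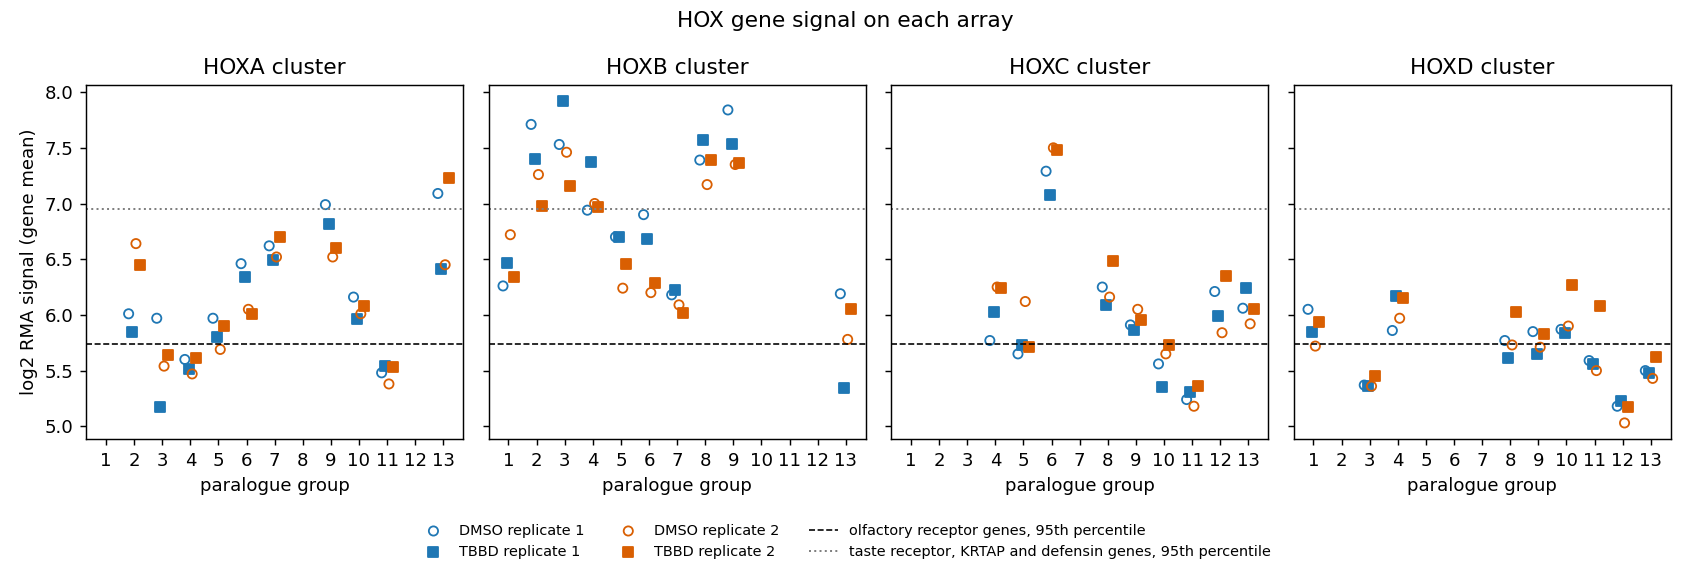
Log2 RMA signal (y axis) of the 38 HOX genes by paralogue group (x axis), 1 panel per cluster, with 1 point per array; circles are DMSO and squares TBBD, blue is replicate 1 and orange replicate 2. Dashed and dotted lines mark the highest 95th percentile over the arrays of the olfactory receptor genes and of the second silent set; HOXB2, HOXB3, HOXB8, HOXB9 and HOXC6 lie above the dotted line on all arrays, and most HOXD genes lie near the dashed one.

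Among the anterior genes, HOXB2 and HOXB3, which act in hindbrain segments, were the brightest. In the order DMSO 1, TBBD 1, DMSO 2 and TBBD 2, HOXB2 had signals of 7.71, 7.40, 7.26 and 6.98. HOXB3 had 7.53, 7.92, 7.46 and 7.16. HOXB1, a gene of hindbrain segmentation switched on early by retinoic acid, had 6.26, 6.47, 6.72 and 6.34. Both replicate 2 arrays were lower than both replicate 1 arrays for HOXB2 and HOXB3, and the arrays of HOXB1 overlapped. HOXA2, a patterning gene of the hindbrain and branchial arches, had 6.01, 5.85, 6.64 and 6.45, with both replicate 2 arrays above both replicate 1 arrays. HOXD1, an anterior gene with 7 probesets, had 6.05, 5.85, 5.72 and 5.94, with single probesets from 4.12 to 8.84 on average. HOXD3 stayed between 5.36 and 5.45 on the 4 arrays, inside the olfactory receptor range.

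Central genes, which pattern the neck and trunk, again were led by HOXB. HOXB8 had signals of 7.39, 7.57, 7.17 and 7.39 in the same order of arrays, and HOXB4 6.94, 7.37, 7.00 and 6.97. HOXC6, a thoracic gene, was the brightest gene outside HOXB at 7.29, 7.08, 7.50 and 7.48. For HOXC6 both replicate 2 arrays stood highest, and for HOXB8 TBBD 1 stood highest. HOXB5 had 6.70, 6.70, 6.24 and 6.46, and HOXB6, a trunk gene, had 6.90, 6.68, 6.20 and 6.29. For both genes the replicate 2 arrays were the lower ones. HOXA6, its paralogue in HOXA, had 6.46, 6.34, 6.05 and 6.01, again with no overlap between the numbers. Of the remaining central genes above the olfactory receptor mark, HOXA7 had 6.62, 6.49, 6.52 and 6.70, and HOXC8 had 6.25, 6.09, 6.16 and 6.48, with TBBD 2 highest in both and the groups overlapping. HOXB7 had 6.18, 6.22, 6.09 and 6.02, a narrow range with the replicate 2 arrays lower. HOXA5, a gene of lung and neck patterning, had 5.97, 5.80, 5.69 and 5.90. HOXC4 had 5.77, 6.03, 6.25 and 6.24 and HOXD4 had 5.86, 6.17, 5.97 and 6.15. HOXC4 was split by number and HOXD4 by treatment, and the arrays of HOXA5 overlapped either way.

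Among the posterior genes HOXB9, a thoracic gene, had 7.84, 7.53, 7.35 and 7.36, and HOXA9, also known from blood progenitors, 6.99, 6.82, 6.52 and 6.60. In both genes the replicate 2 arrays were the lower ones. HOXA13, a gene of distal limb and genital tract, had 7.09, 6.41, 6.45 and 7.23, so that 1 array of each group was high and 1 low. HOXC13, known from hair and nails, had a mean of 6.07 that rested on 1 of 6 probesets. That probeset had a signal of 10.07 and the other 5 lay between 5.00 and 5.46. Its arrays read 6.06, 6.24, 5.92 and 6.05. HOXA10, a gene of limb and uterus, had 6.16, 5.96, 6.01 and 6.08, and HOXC9 had 5.91, 5.86, 6.05 and 5.95. HOXC12 had 6.21, 5.99, 5.84 and 6.35, and HOXD10 had 5.87, 5.84, 5.90 and 6.27, so that TBBD 2 was the highest array of both. The lowest of all was HOXD12, a limb gene, at a mean of 5.15, a level that only 1.46% of all genes lay below.

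Between the replicate numbers, limma's moderated test called 2 HOX genes, HOXA2 higher and HOXB6 lower on the replicate 2 arrays. HOXA2 was higher by 0.62 ± 0.11 (SE; limma adjusted p = 0.0281), by 0.63 among the DMSO arrays and 0.60 among the TBBD arrays. HOXB6 was lower at -0.55 ± 0.11 (limma adjusted p = 0.0399), with -0.70 among the DMSO arrays and -0.39 among the TBBD arrays. Adjustment ran over all 18640 genes, of which limma called 5.37%, with 3.35% higher and 2.02% lower in replicate 2, so 2 of 38 is close to the background and is no result about HOX genes as a set. The median difference was 0.011 over the HOX genes and -0.0024 over all genes, and 19 HOX genes were higher and 19 lower.

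Clusters differed in direction under these counts. In HOXB 8 of 10 genes were lower on the replicate 2 arrays, with a median difference of -0.27, and in 7 of them both replicate 2 arrays lay below both replicate 1 arrays. HOXB1 and HOXB13 were the exceptions, at 0.17 and 0.15. In HOXC 6 of 9 were higher, with a median of 0.15. Medians were -0.013 in HOXA and 0.042 in HOXD. Over all genes 51.0% had arrays of the numbers that did not overlap, 25.1% with replicate 2 higher and 25.9% with it lower, and among the HOX genes 6 were of the first kind and 11 of the second. By position the medians were 0.023 for anterior, -0.014 for central and 0.012 for posterior genes, so no shift along the axis appeared in these medians. Whether clusters differ from each other beyond the spread was not tested.

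At an unadjusted p under 0.05, which 21.0% of all genes reached, limma held 10 HOX genes, 3 higher and 7 lower in replicate 2, against 10.4% and 10.6% of all genes. Besides HOXA2 the higher ones were HOXC4, at 0.35 ± 0.12 (SE), and HOXC6, at 0.31 ± 0.11. HOXC5, which lies between them, differed by 0.22 ± 0.15. Besides HOXB6 the lower ones were HOXB2 at -0.43 ± 0.14, HOXB3 at -0.41 ± 0.16, HOXA6 at -0.37 ± 0.10, HOXA9 at -0.35 ± 0.11, HOXB5 at -0.34 ± 0.11 and HOXB9 at -0.33 ± 0.13. At an adjusted p under 0.1, which 9.65% of all genes reached, limma held 3 HOX genes. The one beyond HOXA2 and HOXB6 was HOXA6 (limma adjusted p = 0.0857). Leaving out 1 array moved some of these values by over 1.5 times. Without DMSO 1 HOXB9 stood at -0.17, HOXB2 at -0.28 and HOXC4 at 0.22, and without TBBD 1 HOXB3 stood at -0.22 and HOXC6 at 0.20. Without TBBD 2 HOXB3 stood at -0.26.

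The HOXA2 and HOXB6 calls did not hold in smaller fits, while the differences kept their sign. With any 1 of the 4 arrays left out limma called neither gene, and the adjusted p lay between 0.0539 and 0.105 for HOXA2 and between 0.0511 and 0.137 for HOXB6, with fewer arrays in the fit. The differences then ranged from 0.53 to 0.71 for HOXA2 and from -0.65 to -0.44 for HOXB6. With treatment as a further term HOXB6 was no longer called (limma adjusted p = 0.0747). With the median over probesets neither was (limma adjusted p = 0.0576 for HOXA2 and 0.142 for HOXB6), and HOXB2 was called instead at -0.92 (limma adjusted p = 0.0147).

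**Figure D2:**
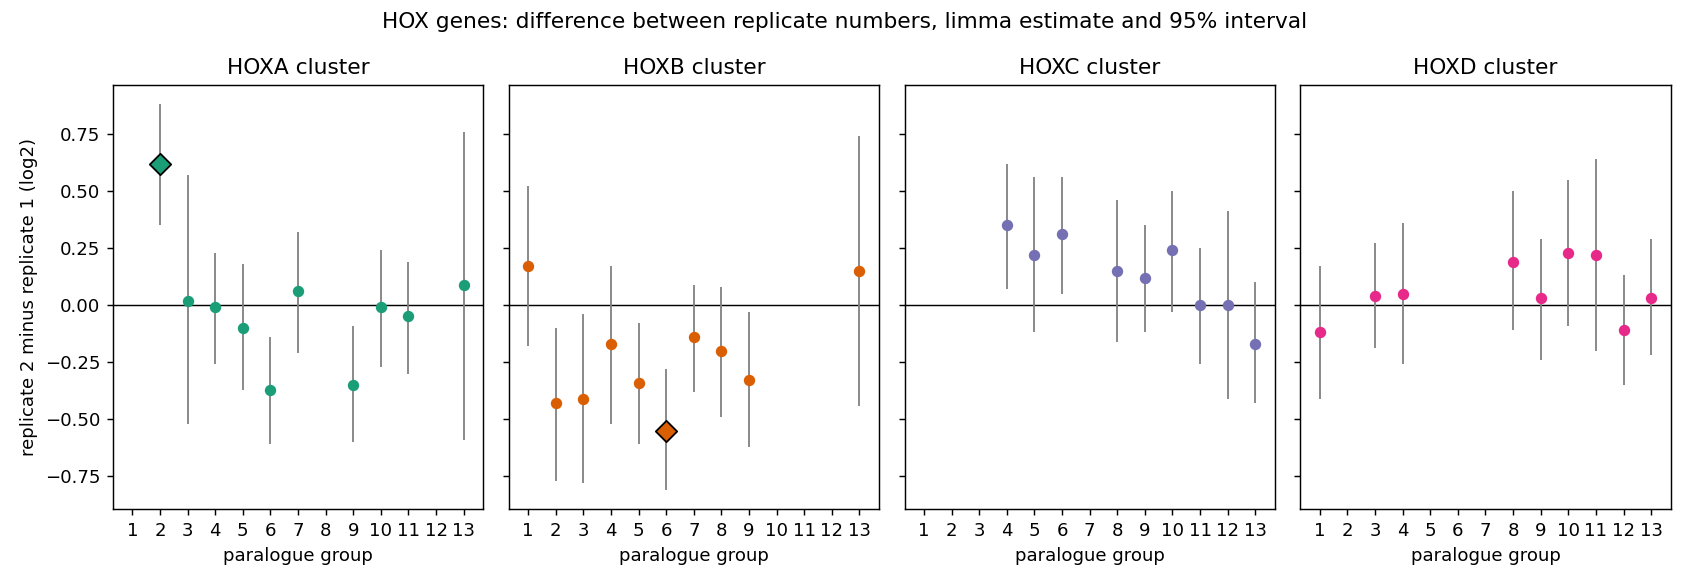
Difference of replicate 2 minus replicate 1 on the log2 scale (y axis) by paralogue group (x axis), 1 panel per cluster; points are limma estimates over 4 arrays and bars 95% confidence intervals. Large diamonds mark HOXA2 at 0.62 and HOXB6 at -0.55; HOXB2 to HOXB9 all lie below 0, and HOXC4 to HOXC10 above it.

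Single probesets showed how uneven the genes were inside. HOXB6 had 4 probesets, and the bright pair, with mean signals of 8.18 and 7.06, differed by -1.09 and -0.87 between the numbers, whereas those at 5.63 and 5.21 differed by 0.07 and -0.29. On the brightest of them the arrays read 9.01 for DMSO 1, 8.44 for TBBD 1, 7.58 for DMSO 2 and 7.68 for TBBD 2. Both HOXA2 probesets were higher in replicate 2, by 0.39 and 0.84. The gene means of HOXB2 and HOXB6 thus include dim probesets with small differences. HOXA9 rested largely on 1 of its 6 probesets, which differed by -1.45 while the others lay between -0.52 and 0.13. All 7 probesets of HOXC6 and all 4 of HOXC4 were higher in replicate 2, and all 5 of HOXB9 and all 4 of HOXB7 were lower.

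Of the 155 HOX probesets 27 had a mean signal of at least 7, and 17 of these belonged to HOXB. Of those 17, 15 were lower in replicate 2, with a median of -0.36. Among the 11 HOXB probesets under 6 the median was 0.03, with 5 lower. Probesets of 1 gene share its transcripts and are not replicates. Tested as single features, 0 of the 155 passed limma's adjusted threshold where limma called 217 of all 218927 probesets, or 0.0991%. An unadjusted p under 0.05 was reached by 12 of the 155 and by 12.5% of all probesets. Probesets of the HOXC4, HOXC5 and HOXC6 region may read overlapping transcripts, so their values are not fully separate.

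**Figure D3:**
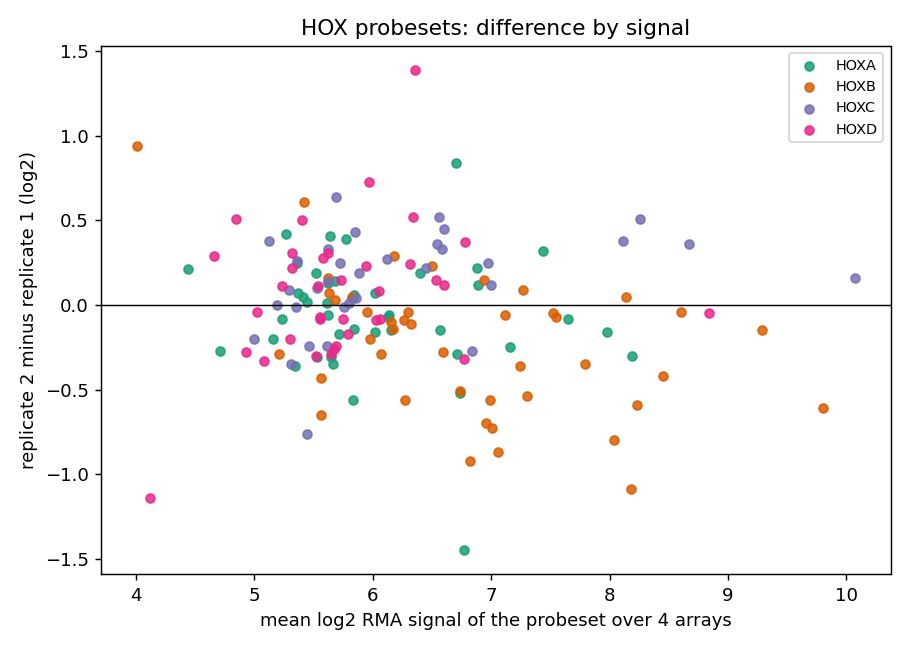
Each of the 155 HOX probesets by its mean log2 signal over the 4 arrays (x axis) and its difference between replicate 2 and replicate 1 (y axis, log2), coloured by cluster. Among probesets at 7 or more, 15 of 17 HOXB points lie below 0; dim probesets scatter around 0.

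With TBBD against DMSO, no HOX gene passed the test. Limma called 0 of 38 at an adjusted p under 0.05, and 0 of all 18640 genes (0%), and 0 HOX genes had an unadjusted p under 0.05, which 0.746% of all genes had. The median difference of TBBD minus DMSO was 0.024 over the HOX genes, with 22 higher and 16 lower, and -0.0035 over all genes. With 1 array left out the HOX median lay between -0.026 (without TBBD 2) and 0.10 (without DMSO 1), so its sign was not stable. Both TBBD arrays lay above both DMSO arrays for 3 HOX genes, HOXA11, HOXC11 and HOXD4, and below them for 0, where 20.9% of all genes had arrays that did not overlap, 10.5% with TBBD higher and 10.4% with it lower. The widest 95% confidence interval was that of HOXA13, from -0.84 to 0.95 around 0.05, and that of HOXC11, among the narrowest, ran from -0.16 to 0.41. The fit held no term for the replicate number, so differences between the numbers entered its error. Fewer genes reached an unadjusted p under 0.05 than that threshold gives without any difference. The 0 calls therefore say little about differences of this size. With the number as a second term limma again called 0 of all genes, with 1 HOX gene at an unadjusted p under 0.05.

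The highest differences with TBBD were those of HOXD11, a limb gene, at 0.27 ± 0.20 (SE), HOXD4 at 0.25 ± 0.12 and HOXB4, known from blood stem cells, at 0.20 ± 0.17. HOXD4, with the array signals given above, had the smallest unadjusted p of the HOX genes in limma, 0.0863. HOXD11 had 5.59, 5.56, 5.50 and 6.08 in the order DMSO 1, TBBD 1, DMSO 2 and TBBD 2, so that 1 array stood above the rest, and on 1 of its 4 probesets that array read 6.0 against 4.20 to 4.61. Without the TBBD 2 array HOXD11 stood at 0.011, and without TBBD 1 HOXB4 stood at 0.00051. The lowest differences were those of HOXA3 at -0.35 ± 0.23, HOXB13, a prostate and tail gene, at -0.29 ± 0.28 and HOXB2 at -0.29 ± 0.22. HOXA3, a pharyngeal patterning gene, had 5.97, 5.17, 5.54 and 5.64, and HOXB13 had 6.19, 5.34, 5.78 and 6.05. In both genes the TBBD 1 array was the low one, below the olfactory receptor median of that array, and without it HOXA3 stood at -0.11 and HOXB13 at 0.059. Without DMSO 1 the values were -0.14 for HOXA3, -0.091 for HOXB13 and -0.066 for HOXB2, and without TBBD 2 HOXB2 stood at -0.083. Inside HOXA3 the dimmest of 6 probesets read 5.10 and 5.23 on the DMSO arrays and 3.56 and 3.86 on the TBBD arrays, below the olfactory receptor median, and limma's adjusted p for it over all probesets was 1.0.

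When each TBBD array was compared with the DMSO array that bears its number, the HOX medians had opposite signs. TBBD 1 minus DMSO 1 had a median of -0.10 with 13 genes higher and 25 lower, and TBBD 2 minus DMSO 2 had a median of 0.13 with 27 higher and 11 lower. In all, 20 HOX genes, or 52.6%, were lower in the first pair and higher in the second, as were 31.7% of all genes. The sign was the same in both pairs for 12 HOX genes, or 31.6%, and for 44.5% of all genes. The pairs share no array, and each side of a pair is 1 array, so these counts carry no test.

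Lower with TBBD in both pairs were 5 of 38 HOX genes and 4291 of all 18640 genes, and higher in both were 7 and 4007. Paralogue group 2, with 2 measured genes, was the one group of 13 whose measured genes were all lower in both. That is a description of 2 genes and was not tested. HOXA2 differed by -0.15 and -0.18, and HOXB2 by -0.31 and -0.27. Each of the 2 probesets of HOXA2 and the 5 of HOXB2 was lower in both pairs, 1 of HOXB2 by only -0.01 in the first. Probesets of 1 gene are not replicates. The other genes lower in both were HOXA6, HOXC6 and HOXC9. Higher in both were HOXA11, HOXB5, HOXB8, HOXC11, HOXC13, HOXD4 and HOXD12, with HOXB8 at 0.18 and 0.22 and both of its probesets higher each time. HOXB5 was level in the first pair, at 0.0 after rounding, with 3 of its 5 probesets lower. HOXA13 went from -0.68 in the first pair to 0.79 in the second, on both of its probesets. HOXB3 went from 0.39 to -0.29.

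By cluster, HOXA had 9 of 10 genes lower in the first pair, with a median of -0.16, and 8 of 10 higher in the second, with a median of 0.12. HOXD had 7 of 9 lower in the first pair, with a median of -0.033, and all 9 higher in the second, with a median of 0.19. Only 3 of these 9 had passed the olfactory receptor mark on every array. Over all 18640 genes 10204 were lower in the first pair and 9919 higher in the second. HOXB had medians of 0.021 and -0.012, and HOXC of -0.053 and 0.075. By position the posterior genes had medians of -0.11 and 0.14, the central ones -0.089 and 0.14, and the anterior ones -0.15 and -0.18. Of the posterior genes 15 of 16 were higher in the second pair, while 8 of the 16 had not passed the olfactory receptor mark on every array. Of the 13 HOX genes not past that mark on every array 12 were higher in the second pair, and of the other 25 HOX genes 15 were. The olfactory receptor genes themselves had a median of 0.0089 in the first pair and 0.052 in the second, where 227 of 348 were higher.

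**Figure D4:**
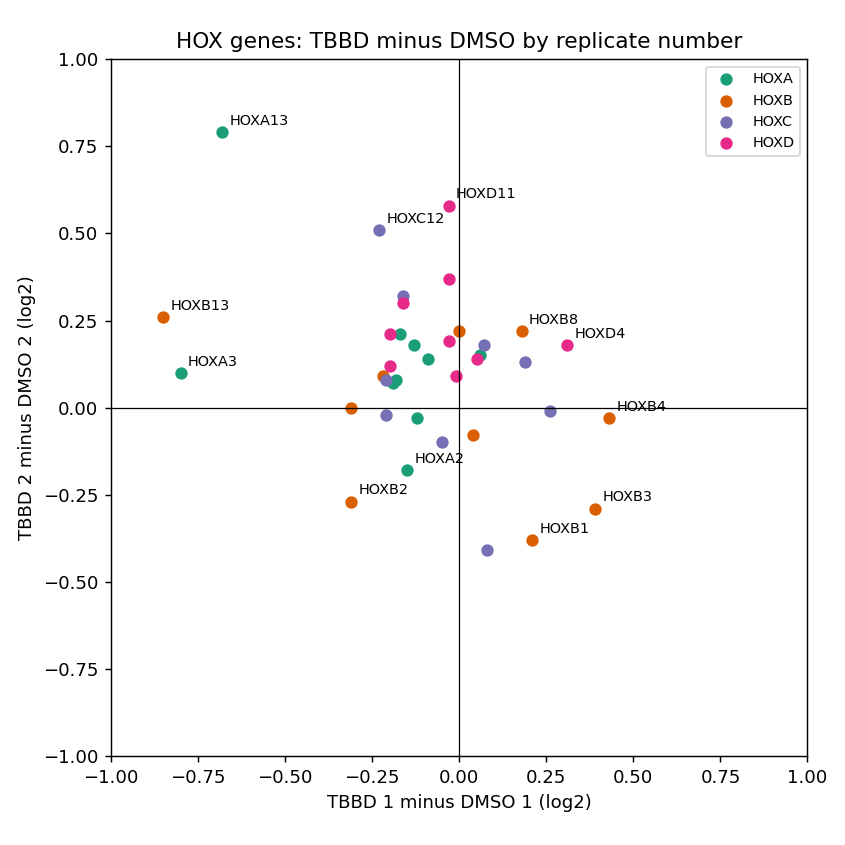
Each of the 38 HOX genes by its log2 difference TBBD 1 minus DMSO 1 (x axis) and TBBD 2 minus DMSO 2 (y axis), coloured by cluster, 1 array on each side of each difference. The upper left part holds 20 genes, among them HOXA13 at -0.68 and 0.79; HOXA2 and HOXB2 lie in the lower left.

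Genes that work with or upstream of HOX genes were described from lists chosen with earlier results known. With TBBD limma called 0 members of any of these lists and 0 of all genes. Of the cofactor, regulator and signal genes 0 had an unadjusted p under 0.05, as 0.746% of all genes had. Among the cell type markers below, GDF3 was lower and TWIST1, GCM1 and SOX1 were higher with TBBD at that level. SOX1 passed the olfactory receptor mark on 0 arrays. All 13 pluripotency markers were lower with TBBD, with a median of -0.21 against -0.0035 over all genes, which was not tested as a set. Between the numbers limma called 5.37% of all genes, and 21.0% had an unadjusted p under 0.05. The counts below are to be read beside these shares. Between the numbers it called 1 of 8 TALE cofactor genes, whose proteins bind DNA together with HOX proteins. Of the 8, 6 were higher in replicate 2, and 4 of these had an unadjusted p under 0.05. MEIS1, a TALE cofactor, had signals of 6.85, 7.23, 8.0 and 8.20 in the order DMSO 1, TBBD 1, DMSO 2 and TBBD 2, a difference of 1.06 ± 0.15 (SE; limma adjusted p = 0.0107). MEIS2 differed by 0.57 ± 0.14 and PBX3 by 0.40 ± 0.12, neither called, and both had replicate 2 arrays above replicate 1 arrays.

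CDX genes are caudal-type activators of central and posterior HOX genes. CDX2 had 7.39, 6.87, 6.07 and 6.21 in the same order and was called lower in replicate 2, at -0.99 ± 0.17 (limma adjusted p = 0.0222). CDX1 differed by -0.41 ± 0.20, and CDX4 by -0.32 ± 0.11 with no array above the olfactory receptor mark, and neither was called. Of the 6 CDX and other ParaHox genes CDX2 alone was called, where limma called 5.37% of all genes. An unadjusted p under 0.05 in limma was reached by 2 of the 6, and by 21.0% of all genes. EVX1, next to the HOXA cluster, had 6.18, 5.55, 5.51 and 5.37, so that DMSO 1 alone stood out, and its difference of -0.42 ± 0.19 was not called.

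A list of 18 signals and targets upstream of HOX genes held Wnt, FGF and retinoic acid genes. The ligand gene GDF11 and mesoderm factors such as TBXT were in it too. Of the 18, 13 were lower and 5 higher in replicate 2, and 2 were called, where limma called 5.37% of all genes. At an unadjusted p under 0.05 in limma, 10 of the 18 were lower and 0 higher, against 10.6% and 10.4% of all genes. The arrays of the numbers did not overlap for 15 of the 18, and for 51.0% of all genes. The largest differences in the list were not called. They were those of WNT8A at -1.2 ± 0.31 (SE), MSGN1, on 1 probeset, at -0.91 ± 0.39 and TBXT at -0.80 ± 0.29. In each of these genes DMSO 1 was the highest array, at 8.57, 7.73 and 7.87 in that order. TBBD minus DMSO was -0.74 ± 0.57, -0.89 ± 0.48 and -0.65 ± 0.40, also not called. With TBBD 15 of the 18 list members were lower and 3 higher, where 9539 of all 18640 genes were lower. The 2 genes called between the numbers were of the retinoid pathway. CYP26A1, which breaks down retinoic acid, was lower at -0.61 ± 0.10 (limma adjusted p = 0.0184), and DHRS3, which reduces retinal, at -0.46 ± 0.10 (limma adjusted p = 0.0428). ALDH1A2, which makes retinoic acid, differed by -0.27 ± 0.12 and its receptor gene RARB by 0.17 ± 0.11, neither called. Of the 21 Polycomb genes limma called 0, with 7 at an unadjusted p under 0.05, which 21.0% of all genes reached. EZH2 differed by -0.17 ± 0.11. Of the 14 Trithorax and demethylase genes 1 was called, the methyltransferase gene ASH1L at 0.44 ± 0.10 (limma adjusted p = 0.0451), and KMT2A differed by -0.09 ± 0.10. At an unadjusted p under 0.05, 1 of the 14 was higher and 2 were lower. Of 6 hindbrain segmentation genes limma called 0, with 2 at an unadjusted p under 0.05, and of the 2 even-skipped homologues 0, with 0 at that level.

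Cell type markers differed between the numbers as well. Over all genes limma called 3.35% higher and 2.02% lower in replicate 2, and 10.6% were lower at an unadjusted p under 0.05. Of 18 mesenchyme and matrix markers limma called 13 higher in replicate 2, and their summed linear signal was 9920 and 10700 on the replicate 1 arrays and 21400 and 23800 on the replicate 2 arrays. Of 15 hepatic and visceral endoderm markers 8 were called higher, with sums of 1620 and 1450 against 2380 and 2810, while ALB and TF lay above the olfactory receptor mark on no array. Of 12 endothelial markers 6 were called higher, with sums of 1010 and 983 against 1650 and 2130. Of 13 pluripotency markers 5 were called lower and 1 higher, with sums of 3240 and 2890 against 2470 and 1960. Of 15 neural markers 2 were called higher, with sums from 1300 to 1520, and SOX1, PAX6, ELAVL4, NEUROG1 and NEUROD1 lay above the mark on no array. Of 12 trophoblast markers 2 were called higher, while 7 were lower, 4 of them at an unadjusted p under 0.05. Their sums were 2780 and 3180 against 2450 and 2450, and INSL4 lay below the mark. Of 10 muscle and heart markers 2 were called higher and 1 lower, with sums from 1100 to 1390 and MYH6 and MYOD1 below the mark. Their part in the HOX differences was not tested. In bulk RNA, fewer cells of a type and less RNA per cell cannot be told apart.

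The members of these marker lists with the smallest p were COL3A1 at 2.16 and DCN at 3.21 for mesenchyme. For endoderm they were APOB at 2.23 and AFP at 2.43, and for endothelium PECAM1 at 2.05 and KDR at 1.21. For trophoblast they were CGA at 2.55 and CYP19A1 at 0.82, with a list median of -0.093. For the neural list they were MAP2 at 0.70 and STMN2 at 0.92, with a list median of 0.14, 11 members higher and 4 lower. For muscle and heart they were ACTC1 at -0.64, TBX5 at 0.53 and DES at 0.56, and for pluripotency ZFP42 at -1.0, DNMT3B at -0.80 and SOX2 at 1.29. These are log2 differences of replicate 2 minus replicate 1, beside which the largest HOX difference was the 0.62 of HOXA2.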

How the data were processed

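The arrays, 4 in all, were of the Affymetrix Human Gene 1.0 ST type. The authors deposited log2 RMA signals per exon-level probeset; RMA is named per the submitters' processing notes, with settings not given in the sources used here, and the values themselves show the log2 scale. Of 247312 probesets, 277 with a placeholder cell were left out. Log2 values of 218927 probesets with 1 symbol were averaged into 18640 genes, with symbols updated through RefSeq. The number of arrays limits the precision. Groups and numbers came from the titles.

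Both comparisons used limma 3.58.1 in R 4.3.3 over all genes with 1 term, two-sided, Benjamini-Hochberg adjusted at 0.05, checked on simulated data. Python 3.11.15 with pandas 2.3.3 and matplotlib 3.10.9 did the rest. The members, lists and alternatives were chosen with earlier results of these data known. All HOX genes are accounted for, and values per array are given for those above the olfactory receptor mark on every array, called, or among the 3 at either end of the TBBD difference. From other lists, up to 2 called members per direction with the smallest p and a constant set of regulators (CDX1, CDX2, CDX4, EVX1, MEIS1, MEIS2, PBX3, EZH2, KMT2A, CYP26A1, ALDH1A2 and RARB) are named. Other names, such as list members below that mark, were chosen after their values were seen. A list of HOX cluster noncoding RNAs matched 0 measured genes. Alternatives were other normalization, probeset summary, filters, priors, terms, thresholds, silent sets, each array left out, and, added after seeing the data, single probesets.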

Additional observations from a re-analysis of the deposited data

How the results depend on the processing

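Of the values that answer a comparison, recomputed under each alternative, 179 stayed near the one reported and 39 did not. The number of HOX genes called between the replicate numbers was 1 with the median over probesets (HOXB2) and with treatment as a second term (HOXA2). It was also 1 with the brighter genes alone (HOXB6) and with genes of at least 3 probesets (HOXB6). Both of these filters left out HOXA2, which has 2 probesets and a mean signal of 6.24, before the test. The number was 10 at an unadjusted p under 0.05, and 0 over single probesets, an alternative chosen after seeing the data. The brighter genes alone kept 12 of the 38 HOX genes, from HOXC only HOXC6 and from HOXD none, so their medians cover fewer genes. Between the numbers they gave medians of -0.27 over these HOX genes, -0.34 in HOXB, -0.41 anterior, -0.19 central and -0.33 posterior. The value of 0.31 in HOXC was that of HOXC6 itself. Genes of at least 3 probesets gave -0.34 in HOXB, and the median over probesets -0.074 for central genes. For TBBD minus DMSO, the brighter genes alone gave -0.0069 in HOXB and -0.11 for HOXC6 alone. Genes of at least 3 probesets gave -0.074 in HOXB and -0.041 anterior, and the median over probesets -0.087 in HOXC. The count of HOX genes above silent genes on every array was 12 among the brighter genes, which drops dim ones by construction, 6 against the second silent set and 16 against the 99th percentile. With 1 array left out, calls were 0 to 0 in both comparisons. The TBBD medians then ranged from -0.026 to 0.10 over the HOX genes, -0.13 to 0.11 in HOXA, -0.0084 to 0.16 in HOXD, -0.0092 to 0.13 central, -0.044 to 0.16 posterior, -0.14 to 0.11 in HOXB, -0.11 to 0.12 in HOXC and -0.11 to 0.014 anterior, and HOXB13 from -0.65 to 0.059, with the sign turned. The medians between numbers ranged from -0.077 to 0.061 over the HOX genes, -0.14 to 0.057 in HOXA, -0.04 to 0.13 in HOXD, -0.083 to 0.098 posterior, -0.29 to -0.21 in HOXB, 0.091 to 0.25 in HOXC, -0.22 to 0.049 anterior and -0.084 to 0.016 central. Causes of these shifts were not tested. Deviations of same-numbered arrays from their group means correlated at 0.566 across all genes and 0.14 across HOX genes, and with 1 pair of numbers this does not settle a pairing. With the replicate block limma called 0 HOX genes for TBBD, with 1 at an unadjusted p under 0.05, and the HOX median was 0.024 as without it. As to signal over background, 13 of the 38 HOX genes did not pass the olfactory receptor mark on every array.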
